A study of Caenorhabditis elegans with 18 samples.

Results

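The genes of the nuclear pore and of transport through it were all rows of the count table whose name begins with npp-, ima-, imb-, xpo- or ran-, 36 of 26709 genes. They comprised 22 nucleoporin genes (npp), 3 importin alpha genes (ima), 3 importin beta family genes (imb), 3 exportin genes (xpo) and 5 genes of the Ran GTPase cycle (ran). Every one was listed with counts, and 23 had at least 1 count in all 18 libraries. The names were those of the deposited table, so genes of the same machinery that it lists under other names, such as rae-1, were outside the rule.

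The study measured by iCLIP the RNAs in contact with FBF-1 and with FBF-2, a pair of PUF proteins that maintain germline stem cells in C. elegans. In iCLIP, UV light links RNA to protein in living animals, the protein is pulled down and the RNA pieces attached to it are sequenced. FBF-1 was an N-terminally 3xFLAG-tagged transgene in a single copy in fbf-1(ok91) null animals, and FBF-2 the same kind of transgene in fbf-2(q738) null animals. Spermatogenic germlines came from strains that also carried fem-3(q22 ts,gf), which made only sperm at 25°, and oogenic germlines from the strains without this allele. All animals were adult XX hermaphrodites with hermaphrodite soma, raised at 25°. There were 3 biological replicates of each protein in each germline, and 3 controls of each germline made without the FLAG antibody, whose fbf strain the labels do not give. The question of the comparison of germlines was which RNAs FBF binds in both and which in one. FBF-1 and FBF-2 were tagged in different strains, so that strain and protein cannot be told apart. By the labels, the FBF libraries of spermatogenic germlines came from sequencing lane 1 and those of oogenic germlines from lane 2, the oogenic controls from lane 1 and the spermatogenic controls from lane 3, so that lane and germline cannot be told apart either. FBF and control libraries of the same germline were also in different lanes, so that lane and antibody cannot be told apart in FBF over control or in its interaction with germline. Whole worms were lysed, so RNA of the soma was present, and the reads of a gene depend on how abundant its RNA is as well as on how much of it FBF holds.

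A nuclear pore is an assembly of nucleoporins in stacked rings, with an outer ring of the Y complex on each face of the envelope, an inner ring, a central channel lined by flexible repeats, filaments on the cytoplasmic face and a basket on the nuclear face. Cargo with a nuclear localization signal is carried in by importins and cargo with an export signal is carried out by exportins. The direction is set by the GTPase Ran, which is loaded with GTP on chromatin and made to hydrolyse it in the cytoplasm. The roles given here for nucleoporins are those of their human counterparts, and importin alpha genes are known for functions in the C. elegans germline, where several are expressed.

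The libraries held between 18749 and 1833483 counts on genes. The smallest was FBF-1 oogenic replicate 1, where 1 count was worth 53.3 RPM, the count of a gene scaled to a common library total, and 9 of the 36 genes had no count, so its values are given but rest on few reads. The other FBF libraries held 227790 counts or more. Spermatogenic controls held 59621 to 145625 counts and oogenic controls 139129 to 283777, so 1 count was worth 3.52 to 16.8 RPM in a control. Sperm markers (11 genes) summed to 662 to 1202 RPM in libraries of spermatogenic germlines and to 0 to 52.9 RPM in those of oogenic germlines, with gsp-4, spe-9 and spe-11 at 0 in the oogenic controls. Oocyte and eggshell markers (10 genes) summed to 2033 to 2606 RPM in spermatogenic libraries and 2453 to 6948 RPM in oogenic ones, so they were not absent from animals that made sperm. Yolk genes of the intestine (6 genes) summed to 6456 to 12260 RPM in FBF libraries and 15519 to 15943 RPM in the controls of spermatogenic germlines, and to 7307 to 11134 RPM in FBF libraries and 15554 to 16418 RPM in the controls of oogenic germlines. Muscle genes (8 genes) summed to 6534 to 8240 against 9846 to 11489 RPM, and to 5120 to 6128 against 8687 to 8877 RPM, in the same order. RNA of rRNA, tRNA and mitochondrial genes took, in spermatogenic germlines, 13.1% ± 1.2 of the counts of FBF-1 and 14.3% ± 1.3 of those of FBF-2 libraries, against 26.4% ± 1.9 in the controls. In oogenic germlines the shares were 22.7% ± 13.3 with FBF-1 and 31.9% ± 2.5 with FBF-2, against 45.6% ± 2.3 in the controls (SD, n = 3 each).

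Together the 36 genes took 8204 ± 163 RPM in FBF-1 and 9610 ± 453 RPM in FBF-2 libraries of spermatogenic germlines, against 1980 ± 25 RPM in the controls. In oogenic germlines they took 8396 ± 2515 RPM with FBF-1 and 8335 ± 666 RPM with FBF-2, against 2724 ± 256 RPM in the controls (SD, n = 3 each). Of the FBF-1 libraries of oogenic germlines the smallest lay lowest, at 5494 RPM, while the other FBF-1 libraries held 9921 and 9775 RPM. No FBF library overlapped a control of its germline in this sum.

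The counts were unevenly spread over the genes. In spermatogenic germlines ima-3 took 16.1% of the counts on the 36 genes in FBF libraries and 11.6% in the controls, and in oogenic germlines 17.6% and 9.89%. Next in FBF libraries came npp-9 and ran-3, with 9.39% and 8.49% in spermatogenic germlines. By RPM, ima-3 was number 20 of all 26709 genes in spermatogenic and number 17 in oogenic FBF libraries, npp-9 was number 64 and 46, and ran-3 was number 86 and 118. The lowest of the 36 was npp-23, number 5146 and 4591. Levels per kilobase of exon allow for gene length only, not for where in a gene the reads lie. By this measure ima-3 had 554 ± 47 RPM in spermatogenic and 663 ± 82 RPM in oogenic FBF libraries. For ran-3 the values were 355 ± 32 and 302 ± 26, for npp-9 277 ± 15 and 317 ± 66, and for ran-1 235.4 ± 20 and 306 ± 51 (SD, n = 3 combined libraries each). The means in the controls were 85.3 and 99.5 for ima-3, 51.0 and 38.8 for ran-3, 29.5 and 62.2 for npp-9, and 114 and 199 for ran-1. Outside these 4 genes the level per kilobase ran from 19.8 RPM (npp-11) to 159.5 RPM (npp-20) in spermatogenic and from 21.7 RPM (npp-14) to 131.0 RPM (xpo-1) in oogenic FBF libraries. In oogenic germlines ran-3, ran-1 and npp-9 did not differ by more than their SDs.

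To ask which of the 36 RNAs were more frequent with FBF than without antibody, FBF-1 and FBF-2 libraries were summed into 3 combined replicates per germline and compared with the 3 controls by edgeR's quasi-likelihood test. A call required a p under 0.01 after Benjamini-Hochberg adjustment over all genes tested, and a change of more than 2-fold, that is, more than 1 on the log2 scale. In spermatogenic germlines 30 of the 36 genes were called higher with FBF and 0 lower, where of all 8269 genes tested 29.2% were called higher and 5.78% lower. The median log2 fold change of the 36 was 1.94, against 0.71 for all genes tested. In oogenic germlines 22 were called higher and 0 lower, where of all 6424 genes 29.6% were called higher and 1.7% lower, and the median was 1.47, against 0.90 for all genes. All 36 genes had a positive fold change in both germlines. The combined FBF libraries lay above all 3 controls for 35 of the 36 genes in spermatogenic germlines (46.7% of all genes) and for 29 in oogenic germlines (46.3% of all genes). Of the nucleoporin genes 20 of 22 were called in spermatogenic and 15 of 22 in oogenic germlines, with medians of 2.58 and 1.65. Of the transport factor genes 10 of 14 and 7 of 14 were called, with medians of 1.57 and 1.09, and the difference between these groups of genes was not tested. Yolk and muscle sums were lower in FBF libraries than in controls in the same comparison. Their part in the result was not tested.

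**Figure D1:**
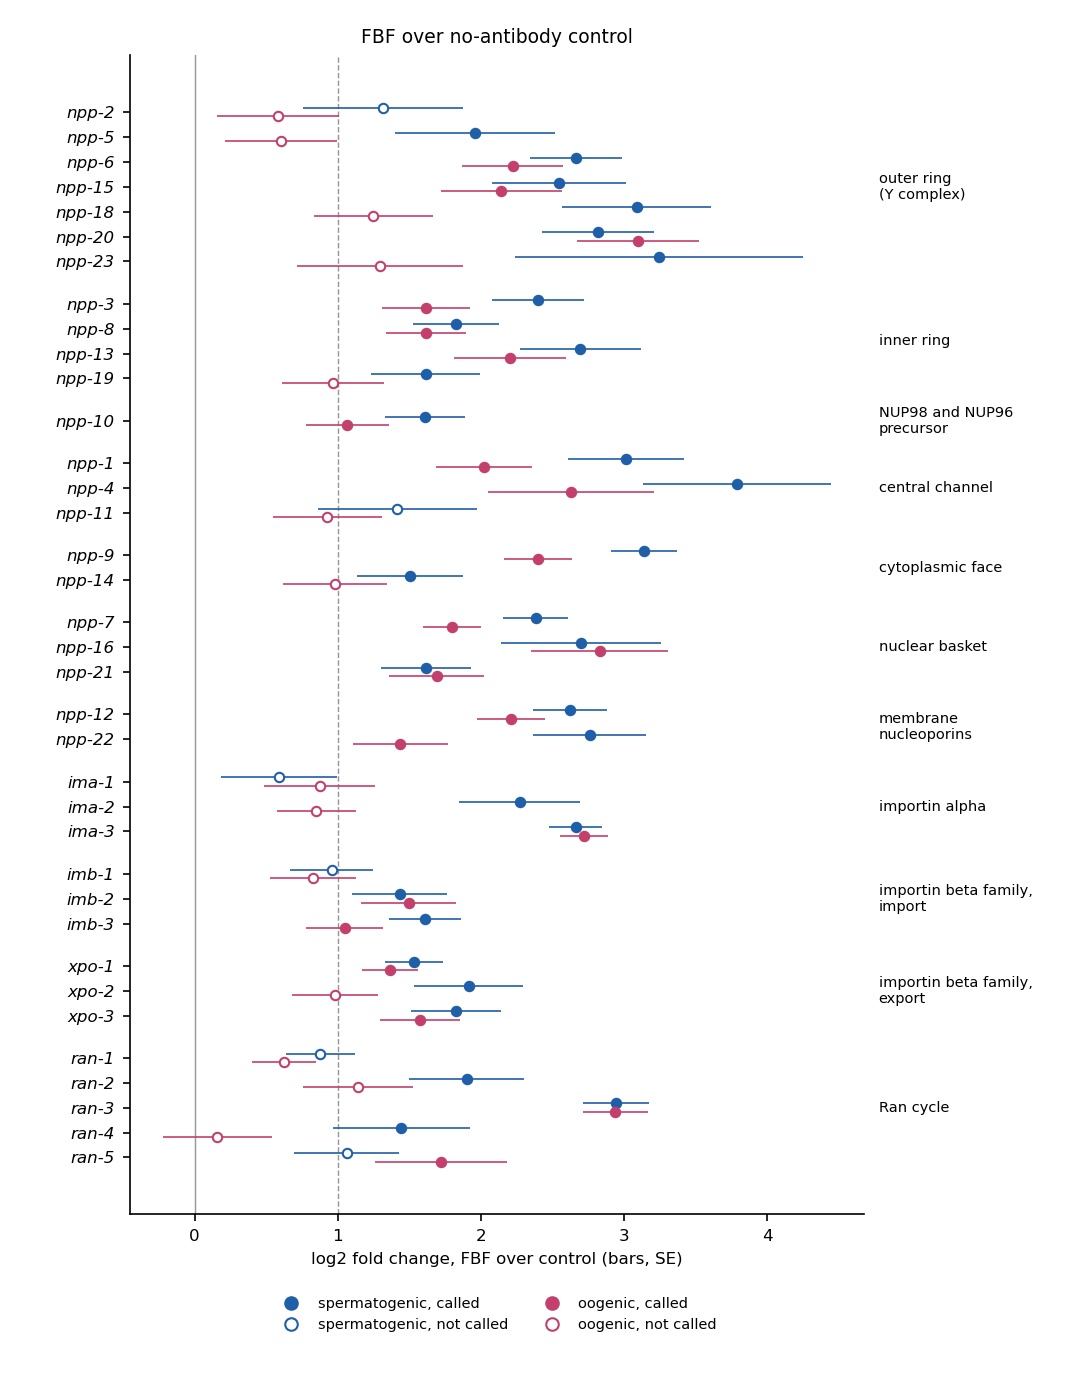
Log2 fold change of FBF over the no-antibody control (x axis) for each of the 36 genes (y axis, grouped by role), with spermatogenic germlines in blue above oogenic germlines in red; bars are standard errors from edgeR (3 combined FBF and 3 control libraries each), filled points were called and the dashed line marks 1. All 36 points of each germline lie above 0, from 0.59 (ima-1) to 3.79 (npp-4) in spermatogenic and from 0.16 (ran-4) to 3.10 (npp-20) in oogenic germlines.

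In the outer ring, whose Y complex builds the scaffold of both pore faces, 6 of 7 genes were called higher in spermatogenic and 3 of 7 in oogenic germlines, with medians of 2.67 and 1.29. The shares of all genes called higher, for this part and those below, were 29.2% and 29.6%, with medians of 0.71 and 0.90. The exception in spermatogenic germlines was npp-2 (NUP85), at 1.32 (SE 0.56, adjusted p = 0.041). The SEC13 gene npp-20, whose human protein also coats vesicles, had 174, 188 and 154 RPM in FBF-1 and 215, 193 and 165 RPM in FBF-2 libraries of spermatogenic germlines, against 9.18, 33.5 and 34.3 RPM in their controls. It had 0, 129 and 131 RPM in FBF-1 and 114, 105 and 120.1 RPM in FBF-2 libraries of oogenic germlines, against 14.1, 14.1 and 14.4 RPM in their controls. Apart from the smallest library, in which it had no count, every FBF library lay above every control of its germline. For npp-20 the log2 fold change over the control was 2.82 (SE 0.39, adjusted p = 6.5e-12) in spermatogenic and 3.10 (SE 0.43, adjusted p = 9.3e-07) in oogenic germlines, the highest value of the 36 in oogenic germlines. The SEH1 gene npp-18 had 76.0, 80.0 and 79.4 RPM in FBF-1 and 132, 154 and 131 RPM in FBF-2 libraries of spermatogenic germlines, against 9.18, 50.3 and 0 RPM in their controls. In oogenic germlines it had 0, 79.9 and 91.1 RPM with FBF-1 and 72.4, 39.5 and 74.8 RPM with FBF-2, against 7.07, 49.3 and 28.8 RPM in the controls. All FBF libraries lay above the controls in spermatogenic germlines, while control replicate 2 overlapped the FBF libraries in oogenic germlines. Set against the control, npp-18 had a log2 fold change of 3.09 (SE 0.52, adjusted p = 2.6e-08) in spermatogenic and 1.25 (SE 0.42, adjusted p = 0.015) in oogenic germlines, the spermatogenic value being 4.76 without control replicate 2 and 2.20 without control replicate 3. In oogenic germlines npp-18 was called when 1 library was missing, without FBF combined replicate 1 (1.27, adjusted p = 0.0011) or without control replicate 2 (2.10, adjusted p = 0.0095).

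The NUP43 gene npp-23 was the least read of the group, with 22.3, 30.5 and 30.6 RPM in FBF-1 and 35.6, 37.9 and 30.5 RPM in FBF-2 libraries of spermatogenic germlines, against 0, 0 and 6.87 RPM in their controls, where a single count in control replicate 3 was all the controls held. Over the pooled counts (169 with FBF, 1 in the controls) the ratio was 9.81, with an exact 95% counting interval of 1.74 to 390, so the fitted 3.25 (SE 1.01, adjusted p = 0.0038) has little precision. The call was lost when any 1 control was left out, with adjusted p of 0.036, 0.014 and 0.011. In oogenic germlines npp-23 had 53.3, 33.05 and 37.1 RPM with FBF-1 and 15.7, 30.7 and 27.2 RPM with FBF-2, against 14.1, 3.52 and 28.8 RPM, groups that overlapped. The NUP160 gene npp-6 and the NUP133 gene npp-15 were called in both germlines, at 2.67 and 2.55 in spermatogenic and 2.22 and 2.14 in oogenic germlines. The NUP107 gene npp-5 was called in spermatogenic germlines (1.96, SE 0.56, adjusted p = 0.0016) and had 0.60 (SE 0.39, adjusted p = 0.20) in oogenic germlines. The call of npp-5 was lost without control replicate 2 (1.66, adjusted p = 0.021) or 3 (1.07, adjusted p = 0.16), and replicate 1 was the one control in which it had counts. Without control replicate 2 the oogenic call of npp-15 was lost too (1.52, adjusted p = 0.012).

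In the inner ring, which anchors the scaffold to the membrane, all 4 genes were called higher in spermatogenic and 3 of 4 in oogenic germlines, with medians of 2.11 and 1.62. The largest change was that of npp-13 (NUP93), at 2.70 and 2.20, with 3.60 in spermatogenic germlines without control replicate 3. For npp-3 (NUP205) the values were 2.40 and 1.61, and for npp-8 (NUP155) 1.83 and 1.62. The NUP35 gene npp-19 was called in spermatogenic germlines (1.62, SE 0.38, adjusted p = 9.7e-05) and not in oogenic germlines (0.97, SE 0.36, adjusted p = 0.027). The gene npp-10, which encodes a precursor that is cleaved into the NUP98 and NUP96 nucleoporins, had 192, 152 and 207 RPM in FBF-1 and 273, 265 and 237 RPM in FBF-2 libraries of spermatogenic germlines, against 64.3, 83.9 and 75.5 RPM in their controls. It had 0, 222 and 192 RPM in FBF-1 and 166, 127 and 176.8 RPM in FBF-2 libraries of oogenic germlines, against 106, 102 and 50.3 RPM in their controls. FBF libraries lay above the controls in both germlines, the smallest library apart. By edgeR, npp-10 had a log2 fold change of 1.61 (SE 0.28, adjusted p = 7.9e-08) in spermatogenic and 1.07 (SE 0.29, adjusted p = 0.0036) in oogenic germlines. The oogenic call of npp-10 was close to its limits and was lost without FBF combined replicate 2 (1.02, adjusted p = 0.018), without control replicate 2 (1.24, adjusted p = 0.016) and without control replicate 3 (0.84, adjusted p = 0.036).

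In the central channel, 2 of 3 genes were called in each germline. The NUP54 gene npp-1 had 139.9, 124 and 136 RPM in FBF-1 and 241, 228 and 212 RPM in FBF-2 libraries of spermatogenic germlines, against 9.18, 67.1 and 13.7 RPM in their controls. It had 107, 153 and 164 RPM in FBF-1 and 162, 149 and 172 RPM in FBF-2 libraries of oogenic germlines, against 42.4, 31.7 and 50.3 RPM in their controls. FBF libraries lay above the controls in both germlines, and FBF-2 libraries lay above FBF-1 libraries in spermatogenic germlines. Its log2 fold change over the control was 3.01 (SE 0.41, adjusted p = 1.2e-12) in spermatogenic and 2.02 (SE 0.33, adjusted p = 1.4e-05) in oogenic germlines, the spermatogenic value being 3.93 without control replicate 2. The NUP58 gene npp-4 had 119.6, 99.0 and 121 RPM in FBF-1 and 65.3, 68.8 and 57.6 RPM in FBF-2 libraries of spermatogenic germlines, against 0, 33.5 and 0 RPM in their controls. In oogenic germlines it had 0, 109 and 111 RPM with FBF-1 and 41.1, 30.7 and 43.1 RPM with FBF-2, against 0, 7.05 and 35.9 RPM in the controls. It was nearly absent from the controls, with 2 counts in all spermatogenic and 7 in all oogenic ones. The pooled ratio was 14.2 (exact 95% counting interval 3.91 to 118) in spermatogenic and 7.06 (3.39 to 17.7) in oogenic germlines, and the fitted log2 values were 3.79 (SE 0.66, adjusted p = 5.1e-08) and 2.63 (SE 0.58, adjusted p = 0.00049). The spermatogenic value was 3.19 without control replicate 1 and 2.91 without control replicate 3. In oogenic germlines control replicate 3 overlapped the FBF-2 libraries. Without control replicate 2 the oogenic value of npp-4 was not called (2.13, adjusted p = 0.026), and without control replicate 3 it was 4.04. The NUP62 gene npp-11, with 1.42 (SE 0.55, adjusted p = 0.024) and 0.93 (SE 0.38, adjusted p = 0.044), was called in neither germline.

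On the cytoplasmic face, the NUP358 gene npp-9, whose human protein forms the cytoplasmic filaments and binds Ran, had 874, 992 and 858 RPM in FBF-1 and 814, 734 and 805 RPM in FBF-2 libraries of spermatogenic germlines, against 91.8, 67.1 and 109.9 RPM in their controls. It had 1013, 1265 and 1142 RPM in FBF-1 and 781, 566 and 721 RPM in FBF-2 libraries of oogenic germlines, against 304, 141 and 122 RPM in their controls. Every FBF library lay above every control, and FBF-1 libraries lay above FBF-2 libraries in both germlines. For npp-9 the log2 fold change over the control was 3.14 (SE 0.23, adjusted p = 4.2e-40) in spermatogenic and 2.40 (SE 0.24, adjusted p = 3.1e-09) in oogenic germlines. The NUP214 gene npp-14 was called in spermatogenic germlines alone, with 1.51 (SE 0.37, adjusted p = 0.00021) and 0.98 (SE 0.36, adjusted p = 0.027) in oogenic germlines. All 3 genes of the nuclear basket were called in both germlines, with medians of 2.38 and 1.80. The NUP50 gene npp-16 had 82.1, 87.6 and 90.1 RPM in FBF-1 and 81.7, 83.8 and 74.6 RPM in FBF-2 libraries of spermatogenic germlines, against 18.4, 16.8 and 6.87 RPM in their controls. It had 0, 116 and 136 RPM in FBF-1 and 66.6, 70.2 and 68.0 RPM in FBF-2 libraries of oogenic germlines, against 7.07, 21.1 and 7.19 RPM in their controls. FBF libraries lay above the controls in both germlines, again with the smallest library at 0. Set against the control, npp-16 had a log2 fold change of 2.70 (SE 0.56, adjusted p = 6.9e-06) in spermatogenic and 2.83 (SE 0.48, adjusted p = 2e-05) in oogenic germlines, the oogenic value being 3.78 without control replicate 2. The other basket genes, npp-7 (NUP153) and npp-21 (TPR), had 2.38 and 1.61 in spermatogenic and 1.80 and 1.69 in oogenic germlines. The membrane nucleoporin genes npp-12 (gp210) and npp-22 (NDC1) were called in both germlines too, at 2.62 and 2.76 in spermatogenic and 2.21 and 1.44 in oogenic germlines. The oogenic call of npp-22 was lost without control replicate 2 (1.36, adjusted p = 0.018).

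The 3 importin alpha genes, which encode adaptors between cargo and importin beta, had unlike levels and fold changes. The most frequent, ima-3, had 1173, 1266 and 1249 RPM in FBF-1 and 1821, 1476 and 1687 RPM in FBF-2 libraries of spermatogenic germlines, against 220.4, 201 and 247 RPM in their controls. It had 907, 1506 and 1374 RPM in FBF-1 and 2419, 1962 and 2026 RPM in FBF-2 libraries of oogenic germlines, against 290.0, 282 and 208 RPM in their controls. Even the smallest library lay above all controls. By edgeR, ima-3 had a log2 fold change of 2.66 (SE 0.18, adjusted p = 1.2e-45) in spermatogenic and 2.72 (SE 0.17, adjusted p = 4.1e-13) in oogenic germlines, and it was called in every one of 18 alternative analyses in spermatogenic and 19 in oogenic germlines. With FBF-1 and FBF-2 taken singly, the log2 fold change of ima-3 was 2.43 and 2.86 in spermatogenic and 2.39 and 3.02 in oogenic germlines.

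The gene ima-1 had 74.01, 64.7 and 83.5 RPM in FBF-1 and 57.9, 59.1 and 57.6 RPM in FBF-2 libraries of spermatogenic germlines, against 36.7, 67.1 and 41.2 RPM in their controls. It had 160.0, 96.4 and 112 RPM in FBF-1 and 60.7, 30.7 and 43.1 RPM in FBF-2 libraries of oogenic germlines, against 42.4, 52.9 and 28.8 RPM in their controls. Controls and FBF libraries overlapped in both germlines. Its log2 fold change over the control was 0.59 (SE 0.41, adjusted p = 0.23) in spermatogenic and 0.87 (SE 0.39, adjusted p = 0.062) in oogenic germlines, and it was called in neither. Without FBF combined replicate 1 the oogenic value of ima-1 was past both limits (1.07, adjusted p = 0.002). The third gene, ima-2, had 141.9, 135 and 134 RPM in FBF-1 and 96.5, 110.3 and 124 RPM in FBF-2 libraries of spermatogenic germlines, against 55.1, 16.8 and 6.87 RPM in their controls. It had 107, 259 and 265 RPM in FBF-1 and 176, 180.0 and 159 RPM in FBF-2 libraries of oogenic germlines, against 149, 98.7 and 122 RPM in their controls. FBF libraries of ima-2 lay well above the controls in spermatogenic germlines, while in oogenic germlines the smallest library fell among the controls and the others lay above them. For ima-2 the log2 fold change over the control was 2.27 (SE 0.42, adjusted p = 4.7e-07) in spermatogenic and 0.85 (SE 0.27, adjusted p = 0.012) in oogenic germlines, and without FBF combined replicate 1 the oogenic value was past both limits (1.05, adjusted p = 6e-07). Its spermatogenic value was 3.65 without control replicate 1 and 1.57 without control replicate 3, called each time. Against the controls of the other germline the log2 fold change of ima-2 was 0.07 in spermatogenic and 3.07 in oogenic germlines, so its call in either germline depended on which controls were used.

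**Figure D2:**
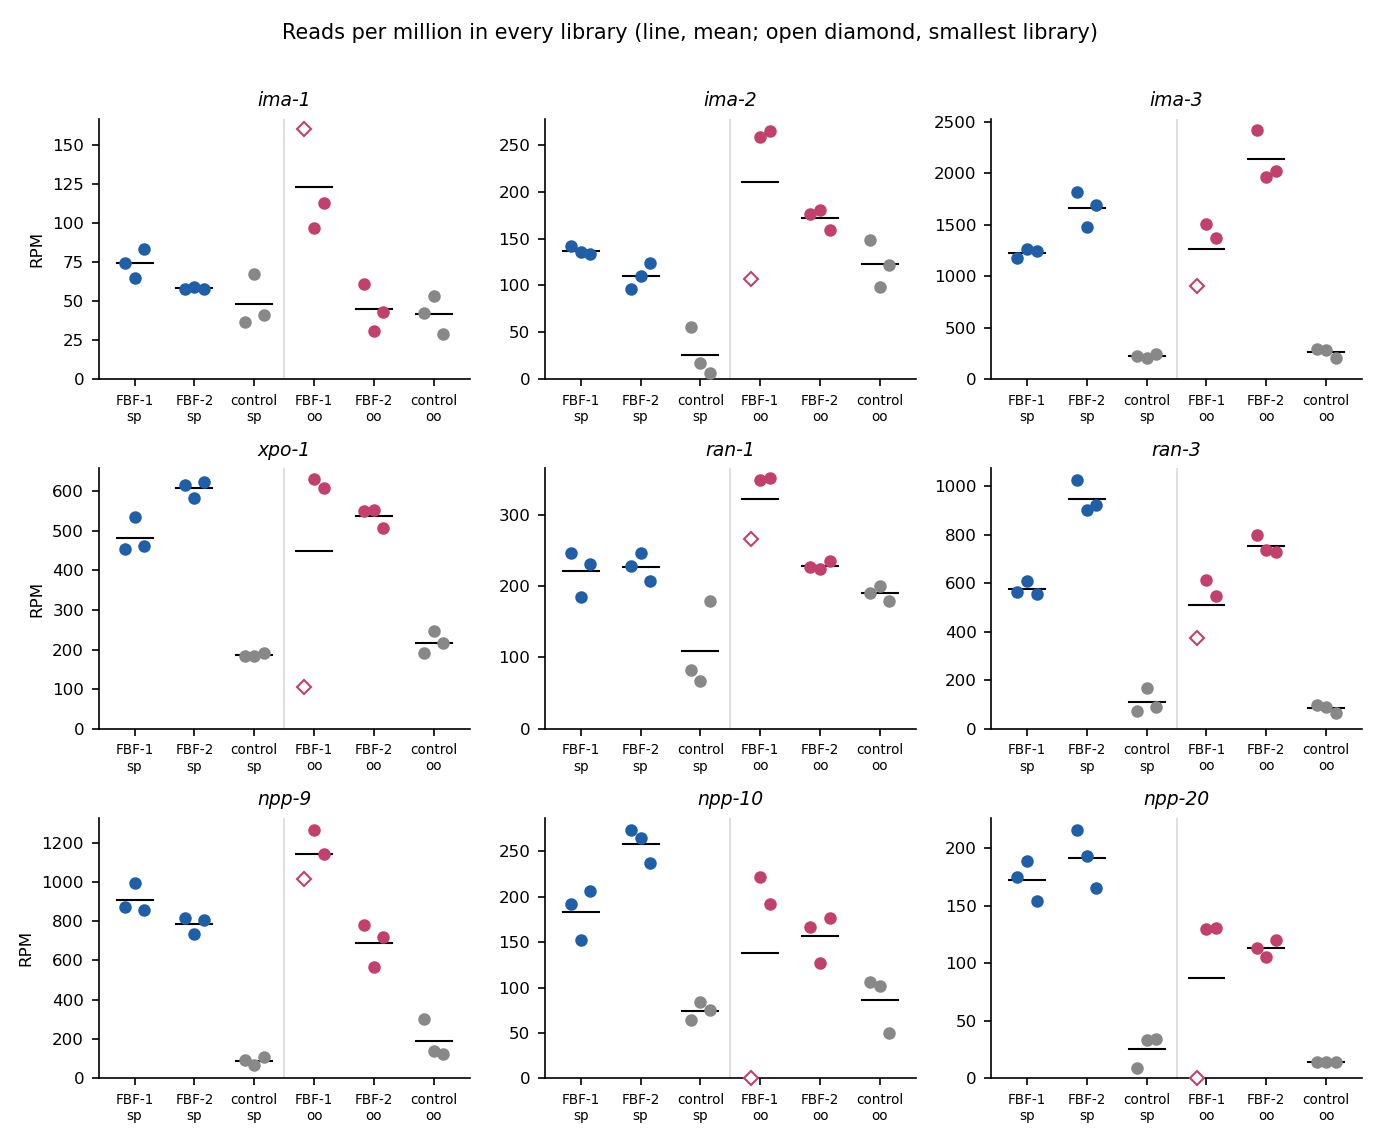
RPM (y axis, each panel from 0 with its own scale) of 9 of the 36 genes in each of the 18 libraries, with FBF-1, FBF-2 and control libraries (x axis) of spermatogenic germlines (sp) on the left and of oogenic germlines (oo) on the right; points are libraries, lines are means of 3 and the open diamond is the smallest library. For ima-3 the FBF libraries lie at 907 RPM or more and the controls at 290.0 RPM or less, whereas for ima-1 the FBF and control libraries overlap.

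Of the importin beta family genes with import roles, imb-2 (transportin) and imb-3 (importin 5) were called in both germlines, at 1.43 and 1.61 in spermatogenic and 1.49 and 1.05 in oogenic germlines. The gene of importin beta itself, imb-1, was called in neither, with 0.96 (SE 0.29, adjusted p = 0.0033) and 0.83 (SE 0.30, adjusted p = 0.025), although it passed in spermatogenic germlines without control replicate 1 (1.08, adjusted p = 0.0089) or 2 (1.21, adjusted p = 0.0017). The oogenic call of imb-3 was lost without FBF combined replicate 3 (0.98, adjusted p = 0.011) or control replicate 2 (0.77, adjusted p = 0.061), and that of imb-2 without control replicate 2 (1.13, adjusted p = 0.027). Among the exportins, xpo-1, the counterpart of CRM1, which exports proteins with leucine-rich signals, had 453, 535 and 461 RPM in FBF-1 and 616, 583 and 624 RPM in FBF-2 libraries of spermatogenic germlines, against 184, 184 and 192 RPM in their controls. It had 107, 632 and 609 RPM in FBF-1 and 550.1, 553 and 508 RPM in FBF-2 libraries of oogenic germlines, against 191, 247 and 216 RPM in their controls. All FBF libraries but the smallest lay above all controls. Set against the control, xpo-1 had a log2 fold change of 1.53 (SE 0.20, adjusted p = 4.2e-13) in spermatogenic and 1.37 (SE 0.20, adjusted p = 1.9e-06) in oogenic germlines. The exportin for tRNA, xpo-3, was called in both germlines (1.82 and 1.57), with a spermatogenic value of 1.21 without control replicate 1 and 3.41 without control replicate 3. The gene xpo-2, the counterpart of CAS, which returns importin alpha to the cytoplasm, was called in spermatogenic germlines (1.92, SE 0.38, adjusted p = 2.9e-06), and its oogenic change of 0.98 (SE 0.30, adjusted p = 0.0091) fell just short of 2-fold.

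The 5 genes of the Ran cycle had log2 fold changes of 0.88 to 2.95 in spermatogenic and 0.16 to 2.94 in oogenic germlines. The exchange factor gene ran-3 (RCC1), which loads Ran with GTP on chromatin, had 566, 611 and 556 RPM in FBF-1 and 1026, 902 and 921 RPM in FBF-2 libraries of spermatogenic germlines, against 73.5, 168 and 89.3 RPM in their controls. It had 373, 613 and 548 RPM in FBF-1 and 799, 738 and 728 RPM in FBF-2 libraries of oogenic germlines, against 99.0, 88.1 and 64.7 RPM in their controls. Every FBF library lay above every control, and FBF-2 libraries lay above FBF-1 libraries in both germlines. By edgeR, ran-3 had a log2 fold change of 2.95 (SE 0.23, adjusted p = 2.6e-35) in spermatogenic and 2.94 (SE 0.23, adjusted p = 2.2e-11) in oogenic germlines, nearly the same value in both. The gene of Ran itself, ran-1, had 246, 185 and 232 RPM in FBF-1 and 229, 247 and 207 RPM in FBF-2 libraries of spermatogenic germlines, against 82.7, 67.1 and 179 RPM in their controls. It had 267, 348 and 351 RPM in FBF-1 and 227, 224 and 236 RPM in FBF-2 libraries of oogenic germlines, against 191, 201 and 179.7 RPM in their controls. FBF libraries lay above the controls in both germlines, with fitted changes under 2-fold. Its log2 fold change over the control was 0.88 (SE 0.24, adjusted p = 0.001) in spermatogenic and 0.62 (SE 0.23, adjusted p = 0.024) in oogenic germlines. Without control replicate 3, the highest of the spermatogenic controls for ran-1, the spermatogenic value was past both limits (1.56, adjusted p = 0.00011).

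The RanGAP gene ran-2 was called in spermatogenic germlines (1.90, SE 0.40, adjusted p = 1e-05) and not in oogenic germlines (1.14, SE 0.39, adjusted p = 0.017). The NTF2 gene ran-4, whose product brings Ran into the nucleus, was called in spermatogenic germlines (1.44, SE 0.48, adjusted p = 0.007) and had 0.16 (SE 0.38, adjusted p = 0.74) in oogenic germlines, the lowest value of the group. The spermatogenic call of ran-4 was made in 6 of 18 alternatives, and was lost among others without FBF combined replicate 2 (1.29, adjusted p = 0.028), control replicate 1 (0.83, adjusted p = 0.18) or control replicate 2 (1.33, adjusted p = 0.036), whereas it was 3.52 without control replicate 3. The gene ran-5, of a Ran-binding protein, was the one gene called in oogenic germlines alone (1.72, SE 0.46, adjusted p = 0.0031). In spermatogenic germlines it had 1.06 (SE 0.37, adjusted p = 0.011). The oogenic call of ran-5 was lost without FBF combined replicate 3 (1.42, adjusted p = 0.023), control replicate 1 (1.51, adjusted p = 0.025) or control replicate 3 (1.52, adjusted p = 0.026), and the value was 2.57 without control replicate 2.

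Set side by side, 21 of the 36 genes were called in both germlines, which is 70% of those called in spermatogenic and 95.5% of those called in oogenic germlines. For all genes the shares were 65.9% and 83.6% (1590 genes). Without FBF oogenic combined replicate 1, which drew 95.9% of its counts from FBF-2, 30 of the 36 genes were called in oogenic germlines, among them xpo-2 (1.13, adjusted p = 1.2e-05), ran-2 (1.35, adjusted p = 1.4e-05), npp-14 (1.18, adjusted p = 0.00025), npp-19 (1.03, adjusted p = 0.0021) and npp-11 (1.03, adjusted p = 0.0078). The median of the 36 was then 1.62 in place of 1.47, and that of all genes 0.95 in place of 0.90. The share of all genes called in this fit is not given here. Leaving out the smallest library alone gave 22 of the 36 genes. The 9 genes called in spermatogenic germlines alone were ima-2, npp-5, npp-14, npp-18, npp-19, npp-23, ran-2, ran-4 and xpo-2, and the 5 called in neither were ima-1, imb-1, npp-2, npp-11 and ran-1. Whether the excess over control differed between germlines was tested as an interaction of antibody and germline, without rRNA, tRNA and mitochondrial genes. None of the 36 passed an adjusted p under 0.01 in edgeR or in DESeq2, where 2.23% of all 7496 genes were called higher and 1.11% lower in edgeR. At an unadjusted p under 0.05 there were 11 of the 36, with no share of all genes to set beside them. The median interaction was 0.76, against 0.31 for all genes, and 34 of 36 values were positive, that is, the excess was larger in spermatogenic germlines. A call in one germline alone therefore does not show a difference between germlines. On simulated data the interaction test recovered 43% of 200 genes changed by 2 on the log2 scale, so it can miss a difference. Scaled to library size, the median of spermatogenic over oogenic FBF libraries was 0.01 for the 36, against 0.19 for all genes. Between the controls it was -0.36 for the 25 genes compared, against 0.26 for all genes. The part of the controls in the positive interactions was not tested.

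The frequency of the 36 RNAs in FBF libraries was next compared between germlines, with TMM scaling. In these bulk samples fewer cells of a type and less RNA per cell cannot be told apart. A single gene was called, ima-2, lower in spermatogenic germlines at -1.05 (SE 0.13, adjusted p = 2e-06), with combined libraries of 113.5, 125 and 129.9 RPM in spermatogenic and 156.5, 240.0 and 245.7 RPM in oogenic germlines. The groups did not overlap. None was called higher. An unadjusted p under 0.05 in either direction was found for 15, with no share of all genes to set beside them. DESeq2 called the same numbers. Over all 7501 genes tested, 10.2% were called higher and 4.71% lower in spermatogenic germlines. The median log2 fold change of the 36 was -0.17, against -0.01 for all genes. The combined libraries of spermatogenic germlines lay wholly above those of oogenic germlines in RPM for 8 of the 36 genes (35.2% of all genes) and wholly below for 4 (8.68%). The call of ima-2 was not made with library-size scaling (-0.83, adjusted p = 0.0017), with FBF-1 libraries alone (-0.93, adjusted p = 2.3e-10) or without FBF oogenic combined replicate 2 (-0.995, adjusted p = 6.7e-05), each time for want of a 2-fold change. The largest positive value was 0.35 for npp-20 (adjusted p = 0.07).

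In the controls, 25 of the 36 genes reached a mean of 5 counts and could be compared between germlines. They were 11 of the 22 nucleoporin genes, none of them of the central channel, and all 14 transport factor genes. Here ima-2 was also lower in spermatogenic germlines, at -2.45 (SE 0.48, adjusted p = 7.2e-05), and so was npp-9, at -1.20 (SE 0.34, adjusted p = 0.0069), with 0 genes higher. Over all 3137 genes tested, 6.28% were called higher and 6.73% lower. The median of the 25 was -0.64, against -0.02 for all genes. An unadjusted p under 0.05 was found for 9 of them, with no share of all genes to set beside it. DESeq2 called 1 lower and 0 higher. The 3 spermatogenic controls lay below the 3 oogenic controls for 5 of the 25 genes (11.6% of all genes). The interaction, which tests whether the difference of ima-2 between germlines is the same with and without antibody, was 1.66 (SE 0.53, adjusted p = 0.045) and did not pass 0.01. It passed without spermatogenic control replicate 1 (3.02, adjusted p = 0.0075), in which ima-2 was most frequent. Between controls the value of ima-2 was -3.75 without this library and -1.75 without spermatogenic control replicate 3, called each time. The call of npp-9 was lost without spermatogenic control replicate 1 (-1.16, adjusted p = 0.011), spermatogenic control replicate 2 (-1.10, adjusted p = 0.013), oogenic control replicate 1 (-0.80, adjusted p = 0.11) and oogenic control replicate 2 (-1.46, adjusted p = 0.011). Without spermatogenic control replicate 3, ran-1 was called lower too (-1.56, adjusted p = 0.002). Oocyte markers summed to 2033 to 2287 RPM in spermatogenic and 2453 to 2730 RPM in oogenic controls, and their part in these differences was not tested.

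**Figure D3:**
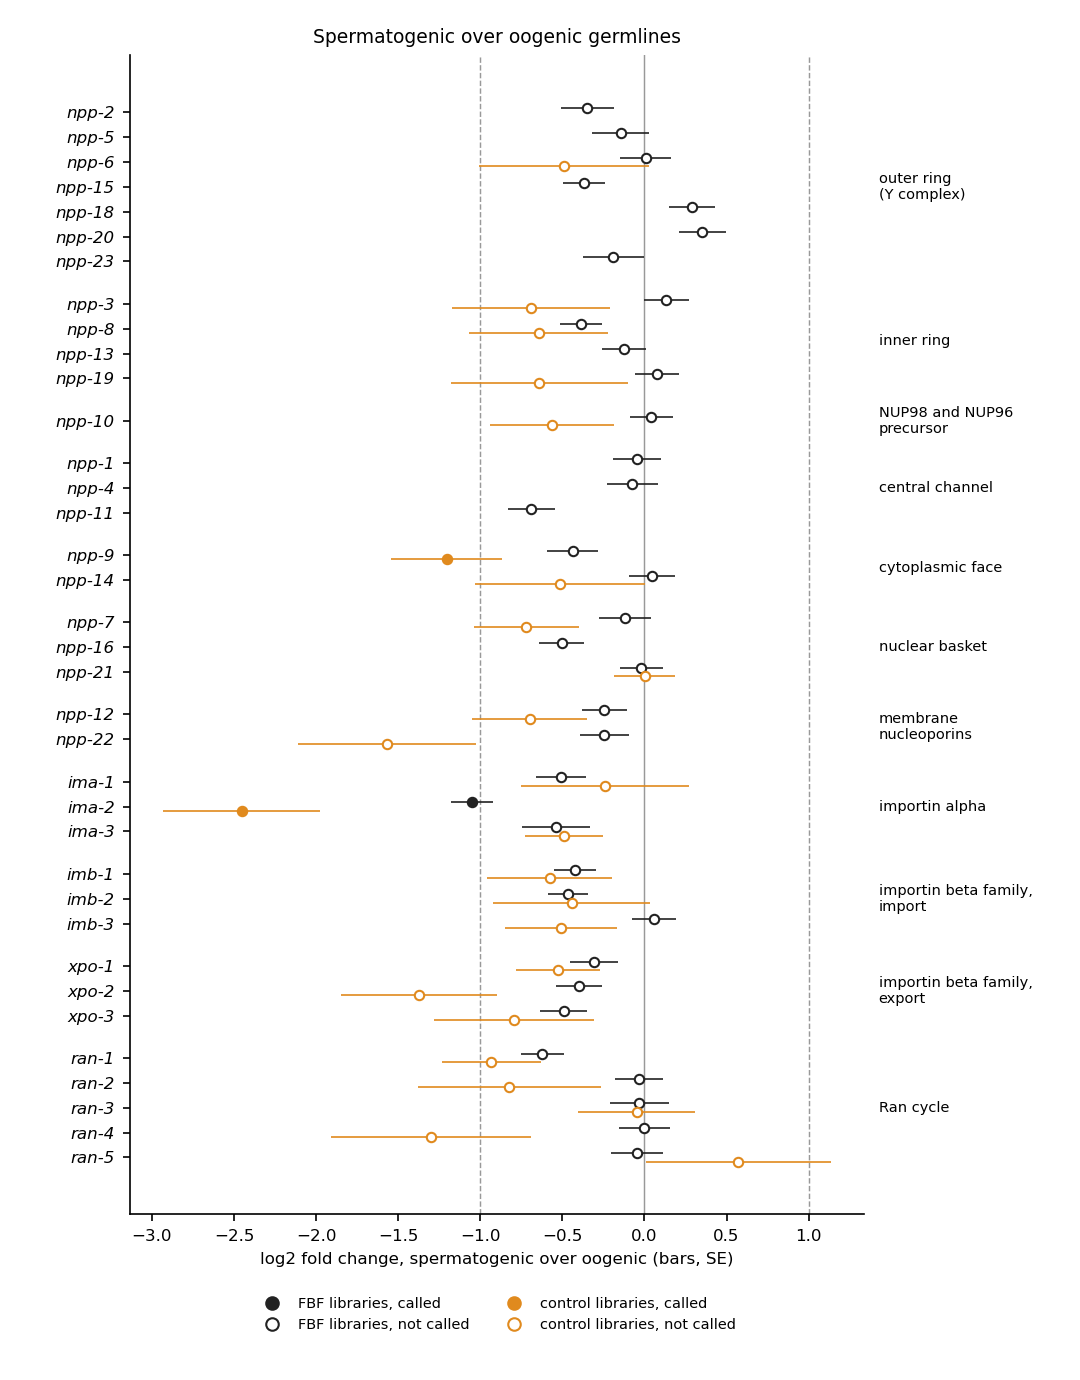
Log2 fold change of spermatogenic over oogenic germlines (x axis) for the 36 genes in FBF libraries (black) and, below each, for the 25 genes tested in control libraries (orange); bars are standard errors from edgeR (3 libraries per germline each), filled points were called and dashed lines mark -1 and 1. Both points of ima-2 lie left of -1, that of the controls at -2.45 and that of FBF at -1.05, and 28 of the 36 FBF points lie below 0 with TMM scaling, against 18 with library-size scaling.

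Between the proteins, no gene passed both limits in spermatogenic germlines in edgeR or in DESeq2, where 4% of all 6203 genes were called higher with FBF-1 and 1.72% lower. An unadjusted p under 0.05 was reached by 14 of the 36. Below 2-fold, 10 genes had an adjusted p under 0.01, 9 of them lower with FBF-1. The share of all genes at either limit is not given here, so these counts do not set the 36 apart. Lower with FBF-1 than with FBF-2 were npp-18 (-0.89, SE 0.14, adjusted p = 5.6e-06), npp-1 (-0.80, SE 0.12, adjusted p = 2.4e-06), ran-3 (-0.76, SE 0.12, adjusted p = 1.4e-05) and npp-8 (-0.60, SE 0.11, adjusted p = 0.0001), with every FBF-1 library below every FBF-2 library. Higher with FBF-1 was npp-4 (0.80, SE 0.15, adjusted p = 8.5e-05), at 119.6, 99.0 and 121 RPM with FBF-1 and 65.3, 68.8 and 57.6 RPM with FBF-2. The median over the 36 was -0.18, against 0.01 for all genes. In the same libraries yolk genes summed to 10158 to 12260 RPM with FBF-1 and 6456 to 8645 RPM with FBF-2, and sperm markers to 1157 to 1202 and 662 to 825 RPM, and their part in the result was not tested.

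In oogenic germlines ima-3 was lower with FBF-1 than with FBF-2, at -1.13 (SE 0.15, adjusted p = 1e-11), the one gene called, where 3.95% of all 4737 genes were called higher and 4.12% lower. Its libraries did not overlap, with 907, 1506 and 1374 RPM for FBF-1 and 2419, 1962 and 2026 RPM for FBF-2. The smallest library was the lowest of them, and without it the gene was still called. The call was not made with library-size scaling (-0.63, adjusted p = 0.00015) or with no minimum on counts (-0.96, adjusted p = 6.3e-05). In spermatogenic germlines the same gene had -0.47 (SE 0.14, adjusted p = 0.007). Close behind in oogenic germlines was ran-3, at -0.92 (SE 0.15, adjusted p = 1.2e-08), which was called without FBF-1 replicate 2 (-1.04, adjusted p = 9.2e-08). The difference between germlines in FBF-1 over FBF-2, tested as an interaction, was 0.67 (SE 0.21, adjusted p = 0.019) for ima-3 and passed 0.01 in 1 of 17 alternatives, without FBF-1 oogenic replicate 2 (0.82, adjusted p = 0.0077). None of the 36 was called in edgeR or in DESeq2, where edgeR called 4.19% of all 5489 genes higher and 2.28% lower. An unadjusted p under 0.05 was found for 5 of the 36, with no share of all genes to set beside it.

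**Figure D4:**
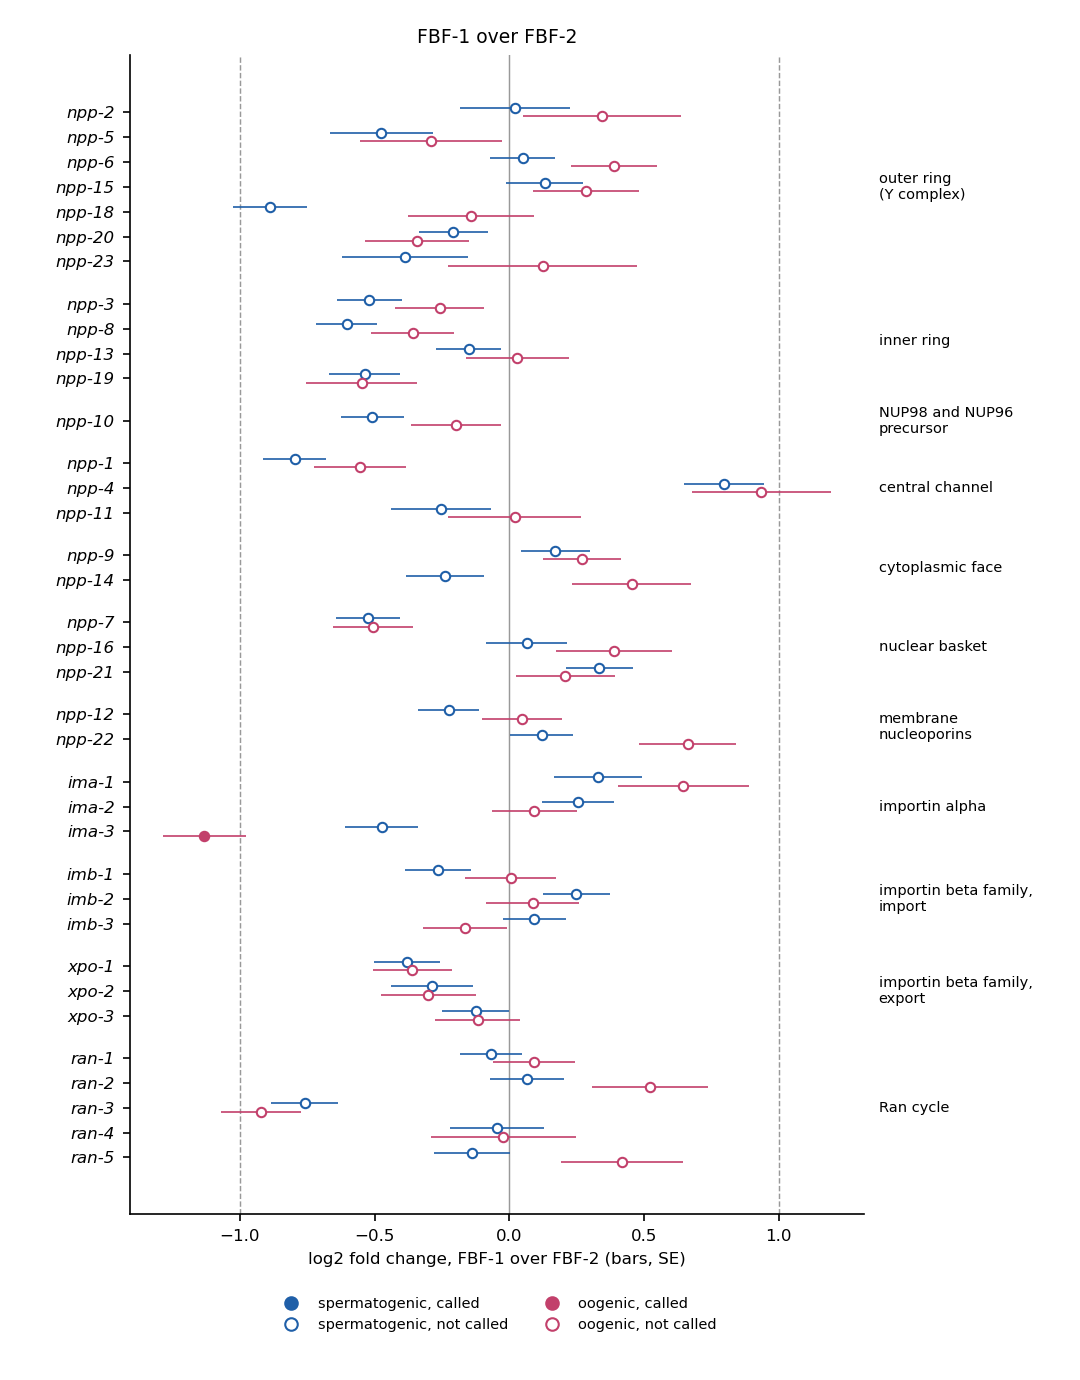
Log2 fold change of FBF-1 over FBF-2 (x axis) for the 36 genes in spermatogenic (blue, above) and oogenic germlines (red, below); bars are standard errors from edgeR (3 libraries of each protein), filled points were called and dashed lines mark -1 and 1. The filled point is ima-3 in oogenic germlines at -1.13, and ran-3 lies at -0.76 and -0.92.

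The scaling of the libraries moved all genes together and bears on these counts. With TMM in place of library size, the median of FBF over control for all genes was 0.36 in place of 0.71 in spermatogenic and 0.17 in place of 0.90 in oogenic germlines, and 27 and 12 of the 36 genes were called. Relative to the median of all genes the 36 were then at 1.23 in place of 1.22 in spermatogenic and 0.59 in place of 0.56 in oogenic germlines. This distance depended on the genes kept. With no minimum on counts it was 0.67 in spermatogenic and 0.61 in oogenic germlines, and among genes with a mean of at least 100 counts, 33 and 31 of the 36, it was 0.62 and 0.36. DESeq2 called 24 genes in spermatogenic and 11 in oogenic germlines. In spermatogenic germlines it did not call xpo-3 (1.62, adjusted p = 0.13), npp-19 (1.31, adjusted p = 0.011), npp-14 (1.22, adjusted p = 0.018), ran-4 (1.14, adjusted p = 0.084), npp-23 (adjusted p = 0.046) or npp-5 (1.63, adjusted p = 0.041). The 29.2% and 29.6% of all genes called higher belong to edgeR with library-size scaling. The shares of all genes with TMM or DESeq2 are not given here. Against the controls of the other germline the difference from all genes was 0.25 in spermatogenic and 1.17 in oogenic germlines. The 12 genes called in oogenic germlines with TMM included ima-3 (2.07), ran-3 (2.27), npp-20 (2.37), npp-16 (2.09), npp-4 (1.93) and npp-9 (1.70), whereas xpo-1 (0.66, adjusted p = 0.018) and npp-10 (0.35, adjusted p = 0.30) were not called, and 32 of the 36 values were positive, with ran-1 at -0.09. For spermatogenic over oogenic FBF libraries the median of all genes was 0.19 with library-size scaling in place of -0.01, and 18 of the 36 values were positive in place of 8. For FBF-1 over FBF-2 in oogenic germlines it was 0.52 in place of 0.01, so that directions of small changes there depend on the scaling.

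By the annotation (Ensembl release 115, assembly WBcel235) the 36 genes lay on all 5 autosomes, with 13 on chromosome I. The gene ima-3 spans positions 7558726 to 7561664 of chromosome IV on the minus strand, ran-3 positions 8322612 to 8325052 of chromosome II on the minus strand, npp-9 positions 3400638 to 3404479 of chromosome III on the minus strand, and ima-1 positions 11239675 to 11241792 of chromosome V on the plus strand. FBF is known to bind 3′ untranslated regions. The longest annotated 3′ untranslated region of each gene had a median of 261 bases and ran from 107 to 1065, with ima-3 (1065), npp-7 (812), xpo-1 (788), imb-1 (720), xpo-3 (551) and imb-2 (530) over 500. Between its length and the excess over control Spearman's rho was -0.15 in spermatogenic and 0.18 in oogenic germlines across the 36 genes, which share libraries and are not independent. Exons of ran-1 overlapped those of rib-2 on the other strand over 9.91% of their length, and as the strand setting of the counting is not given in the sources used here, reads in this stretch are uncertain. Exons of npp-3 overlapped those of K12D12.4 over 5.77%, on the same strand, so that reads there cannot be given to either gene by strand.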

How the data were processed

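Adult worms were cross-linked, and RNA fragments bound to FLAG-tagged FBF were sequenced from 12 libraries, with 6 libraries made without antibody. The authors sorted reads by their barcodes, aligned them (STAR), kept those with 1 sufficiently scored position, counted duplicates with the same random barcode once and assigned reads to exons (HTSeq). The deposited values are raw read counts per gene, not normalized. The genome build, annotation, tool versions and strand setting of the counting are not given in the sources used here. Duplicates were collapsed, so a count is nearer to a molecule than to a read, and counting intervals cover counting error only. The 2 entries that name no gene (reads in no feature, 9.54% to 20.2%, and ambiguous reads, 0.568% to 1.93%) were left out of library sizes. RPM is the count scaled to a common total of counts on genes.

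FBF-1 and FBF-2 libraries were combined into 3 replicates per germline as the study did, and the control libraries were kept single. Genes whose FBF libraries averaged 20 counts or more (for the comparison of controls, whose controls averaged 5 or more) were tested with edgeR 4.0.16 (R 4.3.3, limma 3.58.1), with quasi-likelihood F-tests and Benjamini-Hochberg adjustment over all genes tested. FBF over control and the antibody by germline interaction were scaled by library size, the interaction without genes of rRNA, tRNA and mitochondria, and the other comparisons used TMM. Calls needed a change of more than 2-fold at an adjusted p under 0.01, with no fold minimum for interactions. DESeq2 1.42.0 was an alternative. Standard errors were derived from the F statistic. Tables and figures were made in Python 3.11.15 (pandas 2.3.3, numpy 2.4.6, scipy 1.17.1, matplotlib 3.10.9). The tests were tried on simulated data first, with 200 genes changed by 2 on the log2 scale. The antibody by germline interaction recovered 43% of them, and the other comparisons 77.5% to 100%. Names matched Ensembl release 115 for 23821 of 26709 genes, and this annotation was used for positions, exon lengths and 3′ untranslated regions only.

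The genes, the lists of roles and the tests were chosen with earlier results of these data known. Genes named with their value in every library were the importin alpha genes, xpo-1, ran-1, npp-10 and, in each comparison, up to 5 called genes with the largest rise and 3 with the largest fall. Other alternatives were the scaling, the count and fold minimum, each protein alone, other controls, each library left out in turn and a block for the replicate number. A search of the FBF motif was not run.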

Additional observations from a re-analysis of the deposited data

How the results depend on the processing

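No direction of a called gene turned under any alternative run. The shares of all genes called in the alternatives are not given here, so changed counts do not set the 36 apart. In spermatogenic germlines 30 genes were higher with FBF, 27 with TMM, 24 with DESeq2, 17 at a log2 fold change over 2, and 28 to 30 with 1 library left out. Without rRNA, tRNA and mitochondrial genes the spermatogenic calls of ran-4 and npp-23 were lost. In oogenic germlines the 22 were 12 with TMM, 11 with DESeq2 and 11 at a log2 fold change over 2, and 17 to 30 with 1 library left out. Without rRNA, tRNA and mitochondrial genes the oogenic calls of xpo-1, imb-3, ran-5, npp-22 and npp-10 were lost, and the median was 0.97 in place of 1.47. The median of all genes fell too, to 0.39 in place of 0.90. The 36 were then 0.57 above it, in place of 0.56. FBF-1 alone added oogenic calls of xpo-2, imb-1, ran-2, ima-1, ima-2, npp-18, npp-19, npp-11 and npp-14. FBF-2 alone, with 31 genes tested, added npp-19 and did not call imb-3, ran-5, npp-22 or npp-10. For spermatogenic over oogenic FBF libraries, the 1 gene lower (ima-2) was 0 with library-size scaling, at a log2 fold change over 2 and with FBF-1 alone, and 0 to 1 with 1 library left out. For controls the 2 genes lower were 1 with library-size scaling, DESeq2, a minimum of 20 counts and a log2 fold change over 2, and 1 to 3 with 1 library left out. For FBF-1 over FBF-2 in oogenic germlines, 4 genes were higher with library-size scaling and 1 with no count minimum, against 0, and the 1 lower (ima-3) was 0 with both and at a log2 fold change over 2, and 1 to 2 with 1 library left out. For the antibody by germline interaction 1 gene was higher with FBF-2 alone (npp-22, 2.10) and 0 to 1 with 1 library left out. For the protein by germline interaction 14 genes were lower with library-size scaling, and 0 to 1 were higher with 1 library left out. With library-size scaling the median of this interaction was -0.53 for all genes, in place of -0.05, and -0.65 for the 36. Apart from fits with fewer libraries or a stricter limit, the cause of these changes was not tested. With the replicate number as a block the counts were 29 in spermatogenic and 22 in oogenic germlines, and the same as without it in the other comparisons. Deviations of libraries with the same number correlated at -0.20 to 0.09. Most combined libraries join FBF-1 and FBF-2 libraries of unlike numbers. The number of a combined library therefore cannot show whether FBF and control replicates were paired. Control depth limits the genes with few control counts, not npp-23 and npp-4 alone. The spermatogenic controls together held 623 counts on the 36 genes. Among these were 4 each for npp-16 and npp-18, 7 each for npp-1 and npp-13, and 8 each for npp-20 and npp-22. For npp-18 the counting interval of the pooled spermatogenic ratio was 3.34 to 31.7, and for npp-1 it was 3.91 to 20.2. The spermatogenic nucleoporin median of 2.58 includes these genes. In oogenic controls npp-16 and npp-20 had 8 counts each.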

Other observations

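Genes of neighbouring structures outside the 36 were read in the same comparisons with edgeR's quasi-likelihood test and Benjamini-Hochberg adjustment. Of 11 genes tested that encode proteins of mRNA export and cap binding, 5 were called higher with FBF in spermatogenic and 4 in oogenic germlines, with median log2 fold changes of 1.47 and 1.41. Of all genes 29.2% and 29.6% were called higher, so that 4 of 11 lies near the share of all genes. Among them hel-1, a helicase of mRNA export, had 2.37 and 1.67. Of 11 genes of the lamina and the nuclear membrane, 6 and 4 were called higher, and here too 4 of 11 lies near the share of all genes. Their medians were 1.40 and 0.69, against 0.71 and 0.90 for all genes, with lowest values of -0.92 and -0.79. The gene anc-1 had a mean of 835 RPM with FBF and 463 RPM in the controls of spermatogenic germlines. In oogenic germlines its order was reversed, with 596 RPM with FBF and 1004 RPM in the controls. For unc-83 the means were 45.1 and 77.1 RPM in spermatogenic and 32.3 and 55.6 RPM in oogenic germlines. Of the same list sun-1 had 3.45 and 2.87 and zyg-12 had 2.71 and 2.42 on the log2 scale. They encode a pair of proteins that link the nuclear envelope to the cytoskeleton. The gene lem-2, of an inner nuclear membrane protein, had 623 FBF counts against 1 control count in spermatogenic germlines, a ratio of 36.2 after scaling to library size (counting interval 6.47 to 1430), and 1.95 on the log2 scale in oogenic germlines. Of 5 genes tested of the pore and transport machinery that the table lists under other names, 3 were called higher in spermatogenic and 2 in oogenic germlines. C35A5.8 had 1.77 and 1.94, and C49H3.9 had 1.81 and 1.52. ZK177.4 had 3.02 in spermatogenic germlines and 1.46 (adjusted p = 0.044) in oogenic germlines, where it was not called. It had 2 counts in all spermatogenic and 7 in all oogenic controls, so both values have little precision. These lists were chosen with earlier results of the data known.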
